A study of Mus musculus with 6 samples.

Results

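Mitochondrial ribosomal protein genes are the nuclear genes for the protein subunits of the ribosome inside mitochondria. The members were all protein-coding genes whose symbol begins with Mrpl (large subunit) or Mrps (small subunit) followed by a digit. There were 78 of them among the 55416 genes in the files, 49 Mrpl and 29 Mrps genes. RNA had been sequenced from CD3+ T cell fractions of spleens of wild-type C57BL/6 mice that had received a graft. The isograft group had 3 libraries from recipients of a genetically identical graft, and the allograft group had 3 from recipients of a genetically different graft. The cells of both groups were kept in culture medium with serum before RNA extraction. Not given in the sources used here are the grafted organ, donor strain, time after grafting, ages and length of culture. Nothing in the labels ties each library to a mouse of its own, and p-values therefore reflect only how far these libraries scatter, which could be technical scatter.

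The mitochondrial ribosome translates the few messenger RNAs that the mitochondrial genome encodes, all of them for subunits of the respiratory chain and the ATP synthase. Its ribosomal RNAs are made in the mitochondrion, while its proteins are made in the cytosol and imported. Some of these proteins have counterparts in bacterial ribosomes, and others are found in mitochondrial ribosomes only. Resting T cells that are activated enlarge their mitochondrial content and depend on mitochondrial translation for expansion and effector function.

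RefSeq promoter windows (GRCm38.p6, 250 bases before to 50 after the start) were matched by symbol for 69 of the 78 genes. They were searched on both strands for 4 motifs named for factors that bind many nuclear genes of mitochondrial proteins. The ETS motif CCGGAAG was found in 26 of the 69 genes (37.7%), against 20.5% of 10039 tested genes with a window and 9.93% of all 27025 genes with one. The NRF1 motif, which reads GCGCA, any base and GCGC, was found in 13 (18.8%), against 11.5% and 5.19%. The YY1 motif AAGATGG was found in 13 (18.8%), against 8.60% and 7.28%. The MYC-type E-box CACGTG was found in 5 (7.25%), against 11.7% and 8.09%. No motif lies inside another, and 24 of the 69 genes held none of the 4. A match is a run of letters, not a measured binding site.

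The 250 bases before the start of 3 genes are printed because 2 of them, Mrpl12 and Mrpl17, were among the largest rises and Mrpl58 was the largest fall. They run 5′ to 3′ on the strand of the gene, with the motif matches in capitals. Mrpl12 lies on the plus strand (chr11:120484387-120484636), Mrpl17 on the minus strand (chr7:105811088-105811337) and Mrpl58 on the plus strand (chr11:115403502-115403751), all in GRCm38.p6.
Mrpl12: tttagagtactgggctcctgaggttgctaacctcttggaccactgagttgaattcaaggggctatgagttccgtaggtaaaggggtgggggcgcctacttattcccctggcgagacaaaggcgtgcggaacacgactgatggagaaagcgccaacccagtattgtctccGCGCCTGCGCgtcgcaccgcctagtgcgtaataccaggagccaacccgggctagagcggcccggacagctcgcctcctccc
Mrpl17: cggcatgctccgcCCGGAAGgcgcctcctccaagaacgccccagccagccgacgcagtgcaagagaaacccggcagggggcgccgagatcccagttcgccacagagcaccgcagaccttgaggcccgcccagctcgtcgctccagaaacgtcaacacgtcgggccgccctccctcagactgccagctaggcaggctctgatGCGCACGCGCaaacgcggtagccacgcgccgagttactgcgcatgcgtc
Mrpl58: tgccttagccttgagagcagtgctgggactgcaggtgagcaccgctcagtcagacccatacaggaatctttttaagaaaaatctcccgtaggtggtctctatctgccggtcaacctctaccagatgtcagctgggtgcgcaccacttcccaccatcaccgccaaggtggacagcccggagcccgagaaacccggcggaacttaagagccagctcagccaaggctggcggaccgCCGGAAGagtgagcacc
The capitals in Mrpl12 are an NRF1 match that begins 81 bases before the start. In Mrpl17 they are an ETS match that begins 237 bases before the start and an NRF1 match that begins 49 bases before it. In Mrpl58 they are an ETS match that begins 17 bases before the start, and another ETS match, which begins 2 bases before the start, runs past the printed stretch. The printed rises do not stand for all large rises. Mrps6 (log2 fold change 1.47), Mrpl50 (1.15) and Mrps2 (1.13) were not printed and held no match to any motif searched. Mrpl20 (1.09), also not printed, held an E-box match only. Genes with and without a motif both rose. Of the genes with an ETS match 13 rose and 3 fell (median log2 fold change 0.28), and of the 43 without one 31 rose and 0 fell (median 0.45). For NRF1 the medians were 0.32 with and 0.38 without a match, and for YY1 0.59 and 0.32. These are descriptions and were not tested.

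Library totals ran from 30066137 to 37821738 counts, and 14926 genes passed the filter on low counts. Of the 78 members 77 passed. Levels are CPM, a gene's counts scaled to a common library size, after TMM scaling, and each log2 fold change sets allograft over isograft libraries and comes with its standard error (SE). A call means an adjusted p under 0.05 by edgeR's quasi-likelihood test with Benjamini-Hochberg adjustment over all genes tested. The labelled cell type was checked against markers. All 17 T cell markers passed the filter, of which 5 rose (Cd5, Zap70, Trac, Cd6 and Cd8a) and 9 fell. The falls were Tcf7, Cd4, Cd247, Bcl11b, Cd3d, Cd3e, Cd3g, Cd8b1 and Cd28. The largest were Tcf7, from 449.2 to 136.4 CPM on average, and Cd4, from 211.4 to 71.2 CPM. Cd5, a surface receptor, stood at 30.8 ± 2.48 CPM in isograft and 80.4 ± 5.46 CPM in allograft libraries, and Cd3e, the CD3 epsilon chain, at 122.6 ± 3.0 CPM in isograft and 79.1 ± 12.5 CPM in allograft libraries (SD, n = 3). B cell transcripts were abundant too, and all 15 B cell markers passed. They summed to 3019 to 3179 CPM in isograft and 2874 to 3158 CPM in allograft libraries. The T cell markers summed to 2711 to 2892 and 1863 to 2098 CPM, below the B cell sums in both groups and further below in allograft libraries. The lists hold different genes, so these sums do not give shares of cells. Of the B cell markers 4 rose and 7 fell, and Cd74 made the largest part of their sum (1200 and 987.3 CPM on average). Fcer2a rose from 52.8 to 378.0 CPM, while Cd79b fell from 148.1 to 80.9 CPM.

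The remaining cell types were lower. Plasma cell markers (7 of 8 passed) summed to 223 to 232 CPM and 770 to 869 CPM, macrophage and monocyte markers (13 of 13) to 134 to 142 and 133 to 153 CPM, and NK cell markers (8 of 8) to 83.7 to 84.7 and 94.8 to 96.5 CPM. Dendritic cell markers (6 of 8) summed to 37.7 to 39.5 and 88.0 to 97.5 CPM, neutrophil markers (4 of 8) to 9.98 to 11.6 and 6.90 to 10.3 CPM, and erythroid markers (2 of 7) to 0.469 to 0.842 and 0.711 to 1.12 CPM. The plasma cell sum includes Irf4 (117.5 and 703.8 CPM on average), which activated T and B cells also express. Of the other plasma cell markers, Prdm1 (3.92 and 5.56 CPM) and Xbp1 (64.6 and 73.8 CPM) rose and Sdc1 (17.7 and 6.16 CPM) fell. Jchain, Mzb1 and Derl3 were not called, and the median log2 fold change of the plasma cell list was -0.18. In the dendritic cell sum Zbtb46 (13.6 and 59.0 CPM) and Ccl22 (6.01 and 16.6 CPM) rose, while Flt3, Itgax, Xcr1 and Clec9a were not called, and the list's median log2 fold change was 0.06. The part of these cell types in the results below was not tested, and in these bulk samples fewer cells of a type cannot be told apart from less RNA per cell.

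Most mitochondrial ribosomal protein genes were higher in allograft libraries. Of the 77 tested, 50 rose (64.9%), 4 fell (5.19%) and 23 were not called. Of all genes tested, 57.8% were called: 28.7% rose and 29.1% fell. The rises were mostly moderate: the median log2 fold change of the members was 0.38, with quartiles of 0.13 and 0.72, against a median of -0.01 and quartiles of -0.52 and 0.47 for all genes. A rise of at least 2-fold was found in 8 members (10.4%) against 10.1% of all genes. Every allograft library was above every isograft library for 55 members, against 31.3% of all genes, and every allograft library was below for 4, against 32.1%.

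**Figure D1:**
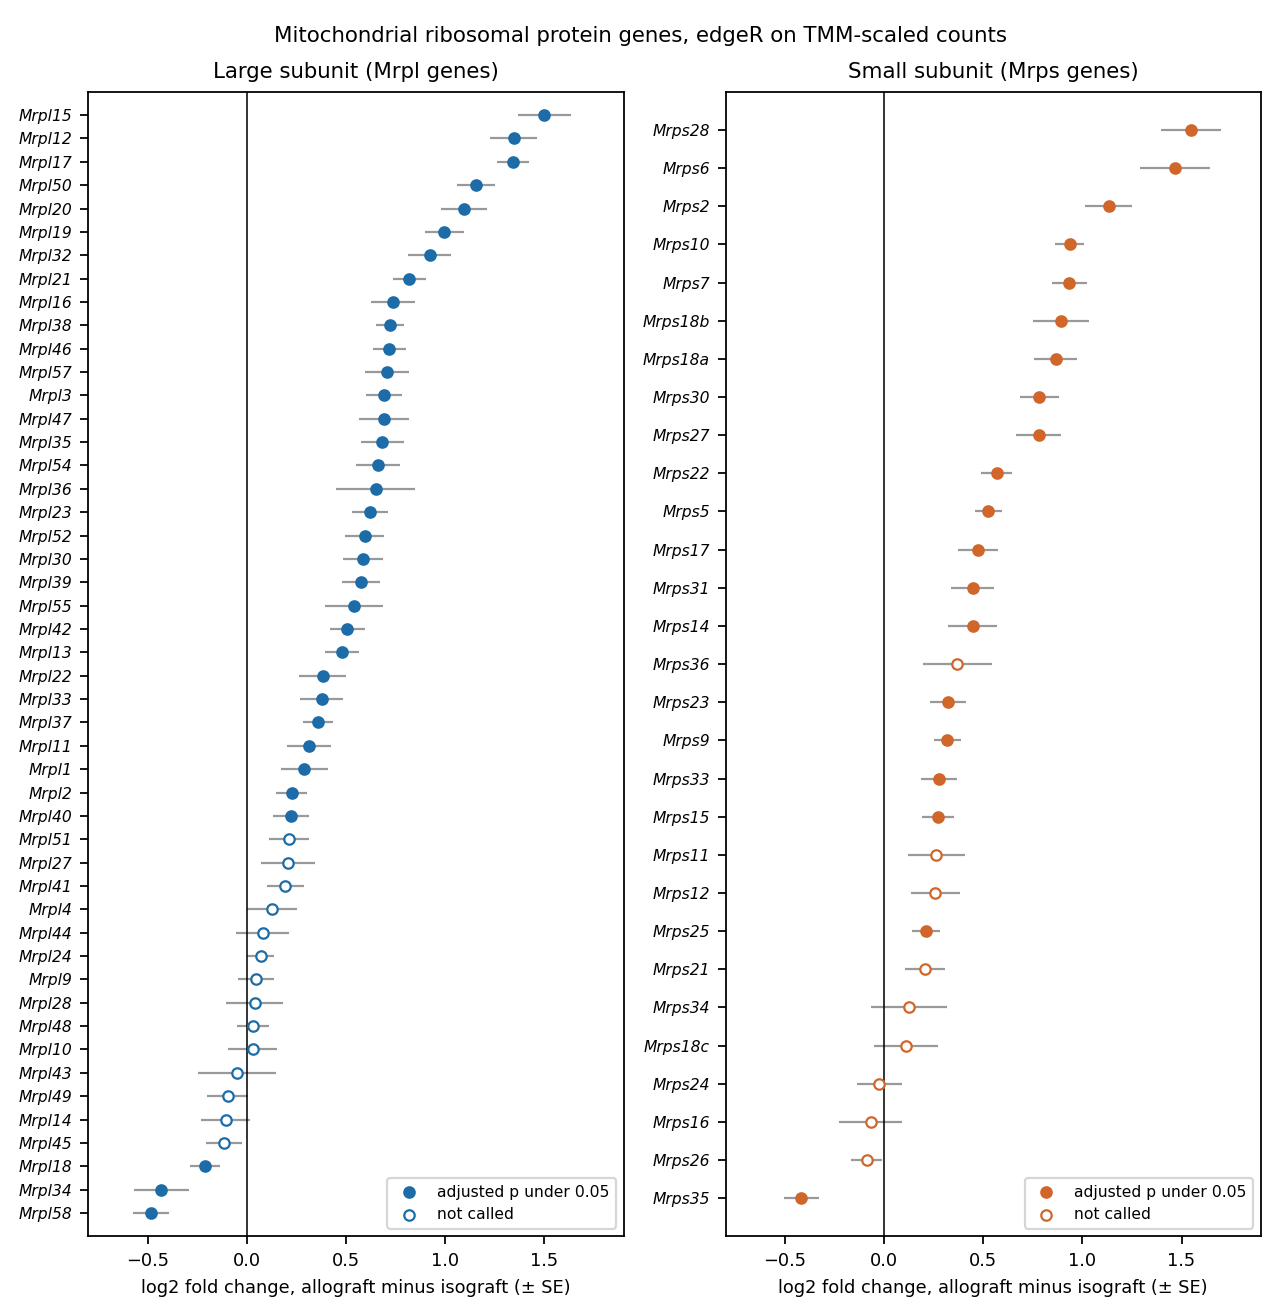
Log2 fold change (allograft minus isograft, ± SE) of the 77 members tested, ranked within Mrpl genes (left) and Mrps genes (right). Filled points passed the test at an adjusted p under 0.05. The points run from -0.48 (Mrpl58) to 1.55 (Mrps28), with 50 filled points to the right of 0 and 4 to the left.

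The size of this shift depends on the scaling. With library totals in place of TMM factors the median of all genes moved from -0.01 to -0.24, and 19.9% of all genes rose while 40.8% fell. On that scale 34 members rose, 8 fell, and their median was 0.16. Relative to the median of all genes the members stood at 0.40 on both scales. This holds by construction, since a change of scaling factors moves the fold changes of all genes by nearly the same amount. The 16 rises lost with library totals had log2 fold changes of 0.21 to 0.65 under TMM, and the 4 members called as falls only there were Mrpl14, Mrpl45, Mrpl49 and Mrps26.

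**Figure D2:**
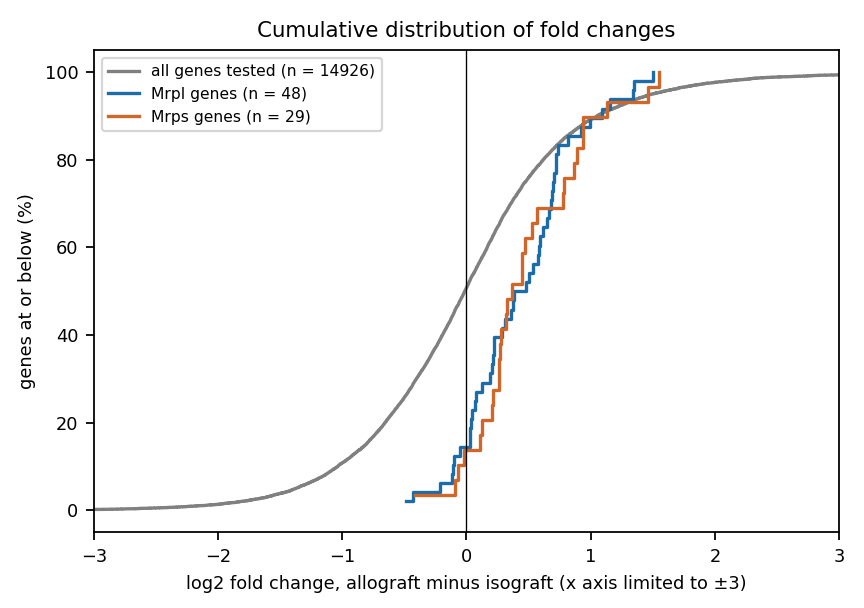
Cumulative share of genes (y axis, %) at or below a log2 fold change (x axis) for all 14926 genes tested, 48 Mrpl genes and 29 Mrps genes. The member curves cross the 50% level at 0.43 (Mrpl) and 0.37 (Mrps), and the curve of all genes at -0.01.

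Among the large subunit genes, Mrpl15 and Mrpl12 had the largest rises. Mrpl15 encodes the counterpart of bacterial L15 (chromosome 1, 4843429 to 4855962, GRCm39, minus strand). Its levels were 39.3, 42.6 and 41.7 CPM in isograft replicates 1, 2 and 3, and 139.7, 120.1 and 89.8 CPM in allograft replicates 1, 2 and 3. The log2 fold change was 1.5 ± 0.13 (adjusted p = 1.9e-06), and the lowest allograft library was above 2 times the highest isograft library.

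Mrpl12 encodes the stalk protein that recruits translation factors to the large subunit (chromosome 11, 120375439 to 120379891, plus strand). It went from 45.6, 45.3 and 42.2 CPM to 133.9, 114.6 and 89.6 CPM, a log2 fold change of 1.34 ± 0.12 (adjusted p = 2.5e-07). The allograft libraries were spread in the same order for both genes, with replicate 1 highest and replicate 3 lowest. The Mrpl15 to Mrpl12 ratio, which no scaling factor enters, was 0.861 to 0.989 in isograft and 1.00 to 1.05 in allograft libraries.

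The 2 genes at the base of the stalk had smaller differences. Mrpl10, whose product anchors the stalk, was at 12.9, 10.7 and 10.6 CPM and at 12.1, 12.0 and 10.7 CPM, so the groups overlapped. Its log2 fold change was 0.03 (95% interval -0.23 to 0.29), and 14.05% of its exon bases lie in an antisense gene. Mrpl11, at the base of the stalk, had 20.6, 16.0 and 16.6 CPM against 22.8, 21.0 and 22.2 CPM and a log2 fold change of 0.31 ± 0.11 (adjusted p = 0.021). It did not pass when isograft replicate 2 (adjusted p = 0.11), isograft replicate 3 (0.089), allograft replicate 1 (0.065) or allograft replicate 3 (0.050) was left out, with fold changes of 0.24 to 0.30, nor with library totals (0.09, adjusted p = 0.53). The Mrpl12 to Mrpl10 ratio was 3.54, 4.24 and 3.98 in isograft and 11.1, 9.52 and 8.34 in allograft libraries. This pair was chosen after its values were seen, and the groups did not overlap.

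Mrpl17, the counterpart of bacterial L17 (chromosome 7, 105452413 to 105460306, minus strand), was at 28.8, 29.0 and 25.6 CPM and then at 70.4, 72.8 and 68.2 CPM. Its log2 fold change of 1.34 ± 0.08 (adjusted p = 3.4e-11) came with a narrow spread in both groups. Mrpl50, found in mitochondrial ribosomes only, went from 16.1, 17.8 and 18.9 CPM to 41.2, 40.1 and 36.5 CPM (1.15 ± 0.10). Mrpl20, whose bacterial counterpart acts early in assembly of the large subunit, went from 8.92, 8.11 and 9.26 CPM to 16.8, 19.2 and 20.2 CPM (1.09 ± 0.12). In none of these 3 genes did the groups overlap.

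**Figure D3:**
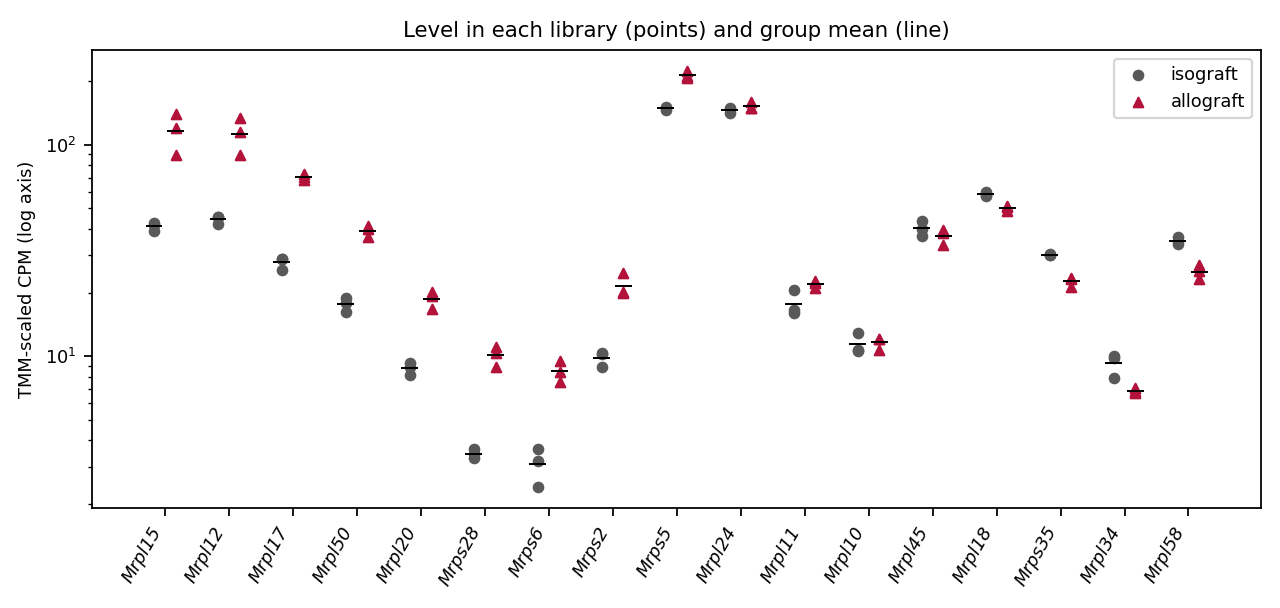
TMM-scaled CPM (log axis) of 17 members in the 3 isograft (circles) and 3 allograft (triangles) libraries, with group means as lines. The 8 genes on the left rose at least 2-fold, the 4 on the right fell, and Mrpl10 and Mrpl45 have overlapping groups.

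Of 5 genes put at the peptidyl transferase centre, where peptide bonds form, 3 rose and 0 fell, and 0 rose 2-fold. The grouping was made with the values known, and of all genes tested 28.7% rose and 29.1% fell. Mrpl16 and Mrpl4 were named after their values were seen. Mrpl16 had the largest difference, from 14.6 to 24.3 CPM on average (0.74 ± 0.11, adjusted p = 1.1e-05), and Mrpl4 was not called (0.13 ± 0.13). Mrpl3 rose from 22.1, 19.8 and 23.2 CPM to 35.0, 35.8 and 34.2 CPM (0.69 ± 0.09, adjusted p = 2.2e-06). Mrpl2 had 43.3, 49.1 and 45.7 CPM against 52.3, 54.2 and 54.9 CPM (0.23 ± 0.08, adjusted p = 0.019). Mrpl2 did not pass with library totals (0.0044, adjusted p = 0.97) or when low counts were not filtered (adjusted p = 0.065). It also missed the threshold when isograft replicate 1 (0.10), isograft replicate 3 (0.060), allograft replicate 2 (0.055) or allograft replicate 3 (0.055) was left out. Mrpl27, whose bacterial counterpart reaches into the centre, had 7.05, 7.23 and 6.42 CPM against 7.98, 7.62 and 8.28 CPM. It was not called (0.21 ± 0.14, 95% interval -0.08 to 0.49) although the groups did not overlap.

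Of 6 genes put at the exit tunnel of the nascent chain, 3 rose and 0 fell, against 28.7% and 29.1% of all genes tested. The grouping was made with the values known. The rises were Mrpl47 (0.69 ± 0.13, with 24.2% of its exon bases in other genes), Mrpl23 (0.62 ± 0.09) and Mrpl22 (0.38 ± 0.12), and in each the groups did not overlap. The Mrpl22 call was lost with library totals (0.16, adjusted p = 0.25) and with an offset for length and GC (adjusted p = 0.061). It was also lost without isograft replicate 3 (0.051) or allograft replicate 1 (0.068). Mrpl24 was the most abundant large subunit gene, at 148.4, 141.3 and 148.6 CPM and then 150.0, 159.9 and 149.8 CPM. Its 95% interval of -0.07 to 0.21 excludes a change of the size of the members' median, and 26.3% of its exon bases lie in an antisense gene, Rrnad1. Mrpl45, which holds the ribosome to the inner membrane, had 39.9, 37.0 and 43.7 CPM against 38.3, 33.6 and 39.4 CPM (-0.12 ± 0.09, adjusted p = 0.29), and with library totals it was called as a fall (-0.34, adjusted p = 0.0031). Mrpl44, with a fold like that of RNase III, had overlapping groups (0.08 ± 0.13, 95% interval -0.20 to 0.36). Away from the tunnel, Mrpl1, of the stalk where transfer RNA leaves, rose by 0.29 ± 0.12 (adjusted p = 0.045). The call did not hold when any isograft library was left out (adjusted p = 0.079 to 0.12) or when allograft replicate 1 (0.076) or 2 (0.24) was, and the fold change there was 0.19 to 0.31. Library totals, limma-voom, either other filter, a block for the replicate numbers and an offset for length and GC ended it too.

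The central protuberance, the crown of the large subunit, held both rises and falls. Mrpl46 rose from 48.2, 43.1 and 51.9 CPM to 75.2, 83.2 and 76.9 CPM (0.72 ± 0.08). Mrpl38, named after its values were seen, rose from 76.7, 74.6 and 77.2 CPM to 128.0, 127.0 and 121.9 CPM (0.72 ± 0.07). In the same structure Mrpl58 and Mrpl18 fell. Of 6 genes put there, 3 rose, 2 fell and Mrpl48 was not called, a grouping made with the values known. Of all genes tested 28.7% rose and 29.1% fell. The third rise was Mrpl40, also named after its values were seen (0.22 ± 0.09, adjusted p = 0.044). Its call was lost with library totals, with limma-voom (adjusted p = 0.052) and with an offset for length and GC (0.16), among other settings.

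Mrpl58, also called Ict1, encodes a peptidyl-tRNA hydrolase that frees stalled ribosomes (chromosome 11, 115294578 to 115303500, plus strand). It was the member with the largest fall, from 35.1, 36.5 and 33.9 CPM to 27.1, 25.2 and 23.1 CPM (-0.48 ± 0.09, adjusted p = 0.00013). Mrpl18 went from 57.1, 60.1 and 57.7 CPM to 50.8, 48.7 and 51.4 CPM (-0.21 ± 0.07, adjusted p = 0.019). Mrpl34, the counterpart of the small bacterial protein L34, went from 7.86, 9.84 and 10.1 CPM to 7.05, 6.69 and 6.86 CPM (-0.43 ± 0.14, adjusted p = 0.013). All 4 falls were less than 2-fold, and in each the groups did not overlap.

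The fourth fall was Mrps35, a small subunit protein of mitochondrial ribosomes only, from 30.1, 30.6 and 29.97 CPM to 23.5, 21.3 and 23.1 CPM (-0.42 ± 0.09, adjusted p = 0.00051). Mrpl58 and Mrps35 were called in each of the 16 other settings run. Mrpl18 missed the threshold when isograft replicate 2 (adjusted p = 0.075) or allograft replicate 2 (0.084) was left out. Mrpl34 missed it when isograft replicate 2 (0.057) or isograft replicate 3 (0.059) was, so that 2 falls remained with isograft replicate 2 left out.

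In the small subunit the largest rises were in genes of low level. Mrps28, the counterpart of a bacterial small subunit protein as are the next 2 genes, went from 3.30, 3.63 and 3.46 CPM to 8.94, 11.0 and 10.4 CPM (chromosome 3, 8867206 to 8988978, minus strand). Its log2 fold change of 1.55 ± 0.15 (adjusted p = 3.5e-08) was the largest of all members. Mrps6 went from 3.66, 3.18 and 2.40 CPM to 9.55, 7.59 and 8.43 CPM (1.47 ± 0.18), with 19.9% of its exon bases in other genes on the same strand, among them the transporter gene Slc5a3. Mrps2 went from 10.2, 8.93 and 10.4 CPM to 24.7, 20.1 and 19.8 CPM (1.13 ± 0.12). In all 3 the lowest allograft library was above the highest isograft library.

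Of 6 genes put along the path of the messenger RNA and at the decoding site, 3 rose and 0 fell. Of all genes tested 28.7% rose and 29.1% fell, and the grouping was made with the values known. The rises were Mrps7, Mrps5 and Mrps9. Mrps11 (0.26 ± 0.14) and Mrps24 (-0.02 ± 0.11), named after their values were seen, were not called and had overlapping groups. Mrps7, in the head of the subunit, rose from 22.2, 21.0 and 20.1 CPM to 38.9, 42.7 and 39.4 CPM (0.93 ± 0.09). Mrps5, near the entry of the messenger RNA, was the most abundant member by CPM and rose from 148.6, 151.2 and 146.2 CPM to 223.5, 206.7 and 211.5 CPM (0.52 ± 0.07, adjusted p = 1.5e-06). Mrps12, the decoding site protein, had 8.68, 9.20 and 8.70 CPM against 11.1, 11.0 and 9.71 CPM. It was not called (0.26 ± 0.12, adjusted p = 0.083) although the groups did not overlap. Of the proteins found in mitochondria only, Mrps22 rose by 0.57 ± 0.08 and Mrps27, which has RNA-binding repeats, by 0.78 ± 0.11.

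Mrps18a, Mrps18b and Mrps18c are 3 relatives of a single bacterial protein, S18, and sit at different places: the product of Mrps18c at the bacterial position, that of Mrps18b elsewhere in the small subunit and that of Mrps18a in the large subunit. Mrps18a rose from 12.5, 13.3 and 14.1 CPM to 26.6, 24.8 and 21.2 CPM (0.87 ± 0.11). Mrps18b rose from 7.05, 5.33 and 5.74 CPM to 11.1, 10.6 and 11.8 CPM (0.89 ± 0.14), with 30.5% of its exon bases shared with an antisense gene. Mrps18c had 5.23, 5.28 and 4.74 CPM against 5.61, 4.76 and 6.115 CPM, with overlapping groups (0.11 ± 0.16, 95% interval -0.23 to 0.45). Of its exon bases 23.2% lie in another gene on the same strand, Gm43511, which bears on both ratios below. The Mrps18a to Mrps18c ratio was 2.38, 2.52 and 2.97 in isograft and 4.74, 5.20 and 3.47 in allograft libraries. The Mrps18b to Mrps18c ratio was 1.35, 1.01 and 1.21 and then 1.98, 2.23 and 1.94. Neither ratio overlapped between the groups, and both were formed after the values were seen.

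Symbol and place in the ribosome disagree for some members. Mrps30, like Mrps18a, encodes a protein of the large subunit despite its symbol, and it rose from 17.4, 18.5 and 17.7 CPM to 33.7, 28.5 and 29.97 CPM (0.78 ± 0.10). Mrps36 encodes a component of the ketoglutarate dehydrogenase complex and no ribosomal subunit. It had 3.90, 4.14 and 3.43 CPM against 4.61, 4.97 and 5.26 CPM and was not called (0.37 ± 0.17, adjusted p = 0.078).

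The remaining rises ran from 0.21 (Mrps25) to 1.00 (Mrpl19) on the log2 scale. Of the exon bases of Mrps25 69.8% lie in the antisense gene Nr2c2, and of those of Mrpl19 36.0% lie in the antisense gene Gcfc2. The Mrps25 call was lost with library totals (-0.010, adjusted p = 0.91) and when low counts were not filtered (adjusted p = 0.054). It was also lost without isograft replicate 1 (0.061). Mrpl19, the counterpart of bacterial L19, went from 14.8 to 29.4 CPM on average, Mrps10 from 45.7 to 87.4 CPM and Mrpl32 from 15.6 to 29.5 CPM. Mrps9, one of the most abundant members, went from 127.2 to 158.6 CPM. These 5 members were named after their values were seen. The 23 members that were not called had log2 fold changes of -0.12 (Mrpl45) to 0.37 (Mrps36). In 5 of them, Mrpl24, Mrpl27, Mrps12, Mrps21 and Mrps36, every allograft library was above every isograft library. That was so for 31.3% of all genes tested, and the share among genes that were not called was not worked out.

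By symbol, 31 of 48 Mrpl genes rose and 3 fell, and 19 of 29 Mrps genes rose and 1 fell, with medians of 0.43 and 0.37. With genes put in subunits by the place of their protein, 33 of 50 large subunit genes rose and 3 fell (median 0.49), and 17 of 26 small subunit genes rose and 1 fell (median 0.32). A filter of at least 5 CPM, which leaves 73 members, turned the order of the medians, with 0.41 for Mrpl and 0.42 for Mrps genes. No test was made of the difference between subunits.

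Summed over members, Mrpl levels were 1358, 1334 and 1315 CPM in isograft and 1944, 1899 and 1810 CPM in allograft libraries. Mrps levels were 848.0, 836.2 and 836.2 CPM and 1139, 1119 and 1114 CPM. The Mrpl to Mrps ratio of these sums, which no scaling factor enters, was 1.59 ± 0.0152 in isograft and 1.68 ± 0.0439 in allograft libraries (SD, n = 3). Mrpl12, Mrpl15 and Mrpl17, the 3 largest Mrpl rises, made 8.32% to 8.77% of the Mrpl sum in isograft and 13.7% to 17.7% in allograft libraries. With these 3 left out of the Mrpl sum, and no gene left out of the Mrps sum, the ratio was 1.45 ± 0.0128 and 1.41 ± 0.0104. They were chosen for their rises, which lowers the allograft ratio by construction, so these values are a description only.

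**Figure D4:**
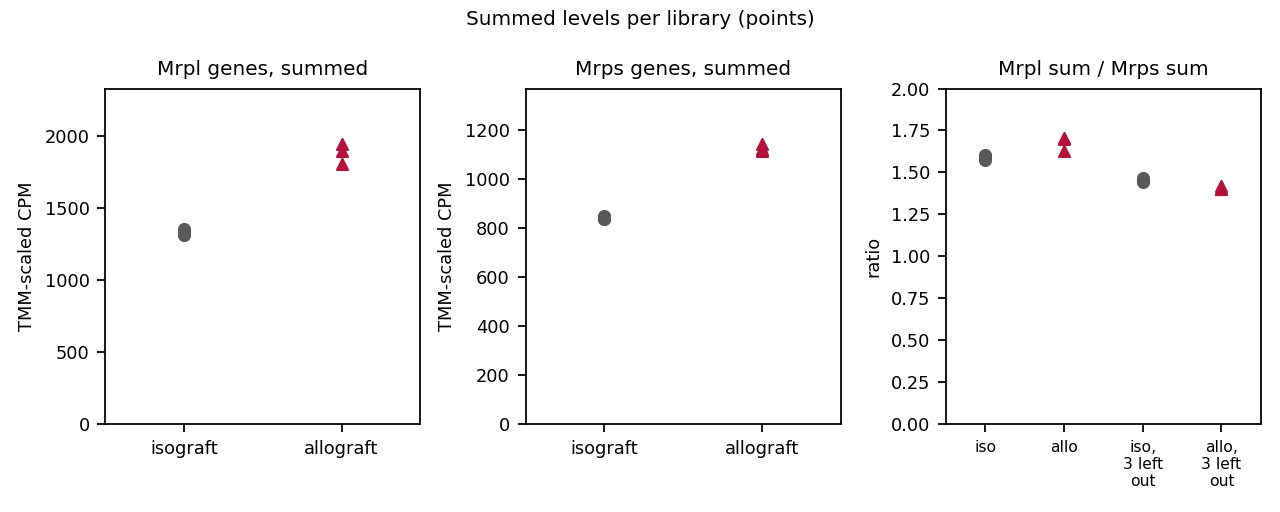
Summed TMM-scaled CPM of Mrpl genes (left) and Mrps genes (middle) and their ratio (right) in each isograft (circles) and allograft (triangles) library. In the right panel the points marked 3 left out leave out Mrpl12, Mrpl15 and Mrpl17. The ratios are 1.59 and 1.68 on average with all genes and 1.45 and 1.41 with the 3 largest Mrpl rises left out.

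Of 46 members with a bacterial counterpart 31 rose and 2 fell (median 0.46), and of 30 tested members without a bacterial counterpart at the same place, Mrps18a and Mrps18b among them, 19 rose and 2 fell (median 0.34). Across the 77 members the log2 fold change had a Spearman correlation of 0.10 with the mean level, 0.20 with exon length and -0.24 with GC content. These are descriptions across genes, which are not independent replicates, and over all 14926 genes the values were 0.12, -0.08 and -0.09.

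Levels per kilobase of exon, averaged over both groups, were highest for Mrpl24 (66.4 CPM per kilobase), Mrpl12 (51.3) and Mrpl46 (44.6). They were lowest for Mrps34 (1.70), Mrpl33 (1.996) and Mrpl43 (2.45). The order differed between the groups. In isograft libraries Mrpl24 (64.8) was followed by Mrpl18 (41.7), Mrpl41 (40.3) and Mrpl2 (39.3), with Mrpl46 at 33.7 and Mrpl12 at 29.0. In allograft libraries Mrpl12 (73.6) stood above Mrpl24 (68.0) and Mrpl46 (55.4). Mrps34 and Mrpl33 were the lowest in both groups, and in isograft libraries Mrps6 (2.01) and Mrpl47 (2.30) were below Mrpl43 (2.50). These levels compare genes only roughly, because the length counts all annotated exon bases of a gene and can exceed that of the expressed transcript. Mrpl33, for example, had 12.7 CPM in isograft and 16.5 CPM in allograft libraries on average, over 7326 exon bases. Exon overlap with other genes also bears on these levels. Fragments that touch exons of 2 genes are left out under the counting tool's defaults, and strand was not used. Of the 78 members 17 have at least 10% of their exon bases in another gene. Mrpl53 (chromosome 6, 83086021 to 83086920) had 0 counts in all 6 libraries, and 88.0% of its exon bases lie in a gene on the same strand, Gm42688, or in an antisense gene. A count of 0 allows up to 3 counts, which is 0.074 to 0.107 TMM-scaled CPM across the libraries and covers counting error only.

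Mrps34, a small subunit protein of mitochondria only, has 77.8% of its exon bases in Mapk8ip3 and Nme3. It had 3.42, 3.675 and 2.96 CPM against 3.84, 3.76 and 3.38 CPM (0.13 ± 0.19, 95% interval -0.28 to 0.53). Mrpl43, with 33.4% in the helicase gene Twnk on the other strand, was not called either (-0.05 ± 0.20). Mrpl33, the counterpart of bacterial L33, rose by 0.38 ± 0.11 (adjusted p = 0.0063), a call lost with library totals (0.16, adjusted p = 0.25). Members with under 10% overlap rose in 42 of 61 cases and fell in 3 (median 0.45), and those with 10% or more rose in 8 of 16 tested cases and fell in 1 (median 0.17). Processed pseudogenes exist for Mrpl23, Mrpl48 and Mrps36, so the counts of these members are uncertain. The pseudogene Mrpl23-ps1 had 7.32 ± 0.0537 CPM in isograft and 15.3 ± 0.939 CPM in allograft libraries.

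Other genes of the pathway were taken from fixed lists, again against 28.7% of all genes that rose and 29.1% that fell. Of 5 ribosomal subunit genes with other symbols 3 rose and 0 fell. Ptcd3, an RNA-binding subunit, rose from 64.7 ± 5.80 to 129.9 ± 6.25 CPM, Chchd1 from 23.0 ± 2.08 to 46.6 ± 4.67 CPM and Aurkaip1 by 0.28 ± 0.08, while Dap3 differed by -0.09 ± 0.09. Of 27 assembly factors 13 rose and 2 fell, with a median of 0.22. Mrm3, a methyltransferase of the large ribosomal RNA, rose by 1.82 ± 0.11, the GTPase gene Noa1 by 1.53 ± 0.13 and the helicase gene Dhx30 by 0.78 ± 0.08.

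Of 16 translation factors tested 7 rose and 3 fell, with a median of 0.09. The elongation factor gene Gfm1 rose by 0.95 ± 0.08, the recycling factor gene Mrrf by 1.04 ± 0.10 and Lrpprc, which stabilises mitochondrial messenger RNAs, by 0.86 ± 0.07. Mitochondrial aminoacyl-tRNA synthetases divided evenly, with 6 of 17 that rose and 6 that fell (median -0.08). Yars2 rose by 1.16 ± 0.14 and Rars2 by 0.82 ± 0.10, while Cars2 fell by 1.18 on the log2 scale. Of 22 genes of mitochondrial transcription and RNA processing 13 rose and 5 fell (median 0.41), with Elac2, which trims transfer RNA ends, up by 1.45 ± 0.08, the helicase gene Supv3l1 by 1.33 ± 0.09 and Pnpt1, of the RNA degradosome, by 1.09 ± 0.08.

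The RNAs that the mitochondrion itself makes were less clear. Of 13 mitochondrially encoded messenger RNAs 5 rose and 0 fell (median 0.44), and with library totals 0 rose. The rises included mt-Co2 (0.50 ± 0.14), mt-Nd1 (0.60 ± 0.15) and mt-Nd5 (0.27 ± 0.09). Average levels of the 13 ran from 2.15 to 1955 CPM. While mt-Nd1 had 1077 and 1631 CPM in isograft and allograft libraries, mt-Co2 had only 9.04 and 12.8 CPM. The reason for such low counts was not tested, and the median takes in all 13. The ribosomal RNA gene mt-Rnr1 fell by 0.28 on the log2 scale (adjusted p = 0.016), with overlapping groups, in libraries made with an mRNA kit. Of 79 cytosolic ribosomal protein genes tested 32 rose and 3 fell (median 0.16), and with library totals 14 rose and 20 fell (median -0.06). Rpl7l1 (1.28 ± 0.07), Rps27l (1.18 ± 0.13) and Rpl13a (0.89 ± 0.10) rose, and many genes of that family share reads with pseudogenes. Counts with library totals are to be set beside the shares of all genes on that scale, of which 19.9% rose and 40.8% fell. There 2 other-symbol subunit genes rose and 1 fell, 9 assembly factors rose and 5 fell, and 5 translation factors rose and 5 fell. Of the synthetases 4 rose and 8 fell, and of the transcription and processing genes 10 rose and 8 fell. No list was tested against another.

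**Figure D5:**
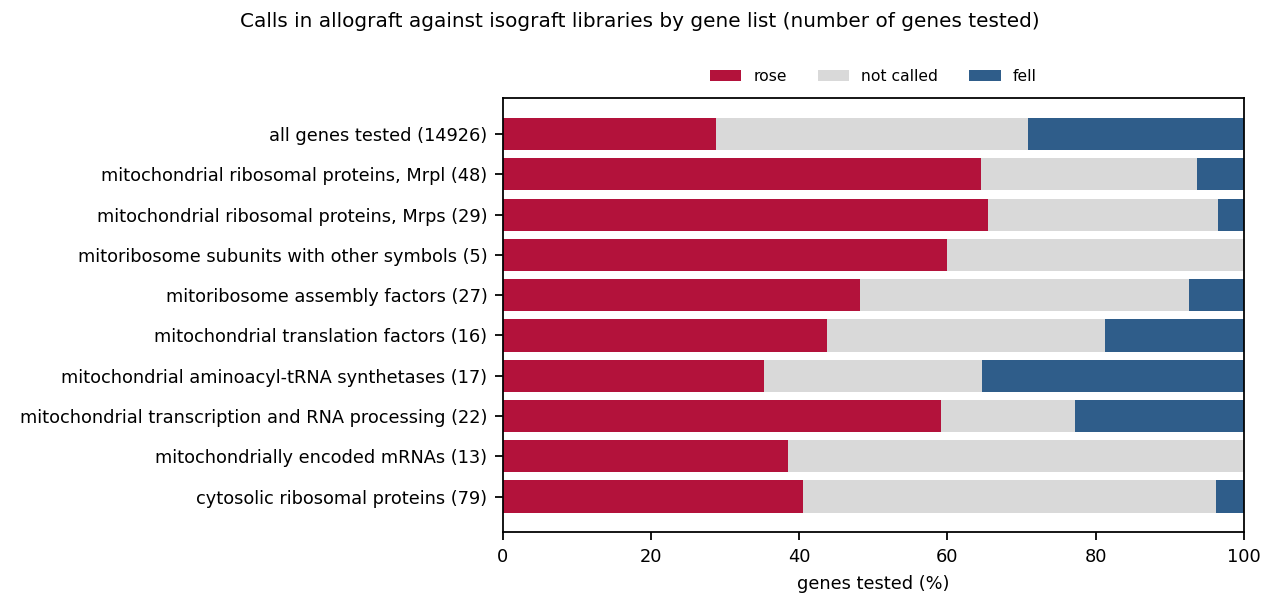
Share of tested genes (x axis, %) that rose, were not called or fell in allograft against isograft libraries, for all genes, the Mrpl and Mrps genes and 7 lists of the pathway, with the number tested in brackets. The Mrpl and Mrps bars have about 65% of genes that rose, and the aminoacyl-tRNA synthetase bar has equal shares of rises and falls.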

How the data were processed

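Per the labels, CD3+ T cells from spleens of isograft and allograft recipients gave 3 mRNA libraries per group (TRIzol extraction, SMARTER kit). The authors deposited raw counts per gene and library, made per the file headers with featureCounts 1.6.0 on paired reads over exons of Ensembl annotation 104 for GRCm39. GRCm38 and mm10 are the builds listed in the submitters' processing notes. Gene coordinates are those of the files. No strand, multi-mapping or overlap option stands in the headers.

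Symbols and biotypes were matched by Ensembl gene ID to a GENCODE table for 52083 of 55416 genes. Counts were tested with edgeR 4.0.16 in R 4.3.3 (filterByExpr, TMM, robust quasi-likelihood fit, all 6 libraries, no covariates), with Benjamini-Hochberg adjustment over 14926 genes and a threshold of 0.05. The test was checked on simulated data. Levels are TMM-scaled CPM. Alternatives used DESeq2 1.42.0, limma 3.58.1 (voom), other scalings and filters, a length and GC offset, a replicate block and each library left out. Library totals were 30066137 to 37821738 counts, which is the depth behind each value. Replicates of a group differed by more than sampling noise.

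The members and lists were chosen with earlier results of these data known. Members were named if among the 8 largest rises or 8 largest falls past the threshold, among the 3 highest or 3 lowest in CPM per kilobase, or on a fixed list of roles. Of each pathway list, up to 3 genes past the threshold with the smallest p were named. Names outside this rule are marked in the text or stand for list members that were not called.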

Additional observations from a re-analysis of the deposited data

How the results depend on the processing

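Over the 16 alternatives, 34 members rose and 2, Mrpl58 and Mrps35, fell in every one, and 44 to 50 members rose in all but the fit with library totals. With library totals 34 rose and 8 fell, and the medians were 0.16 for all members, 0.21 for Mrpl and 0.15 for Mrps genes, since that scaling moves the median of all genes to -0.24. Leaving out each library left 44 to 48 rises and 2 to 4 falls, a member median of 0.37 to 0.43, an Mrpl median of 0.40 to 0.46 and an Mrps median of 0.30 to 0.40. The Mrps median was 0.42 with at least 5 CPM, 0.32 with the length and GC offset and 0.32 by the place of the protein. The Mrpl minus Mrps difference in medians was 0.06, turned to -0.014 with at least 5 CPM and was 0.17 by place. The allograft minus isograft difference in the ratio of sums was 0.087, 0.12 by place and -0.045 without Mrpl12, Mrpl15 and Mrpl17, a setting chosen after seeing the data that lowers it by construction. For the other settings the cause was not tested.

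Members that were not called changed sign in some settings. Mrpl10 was -0.19 with library totals and -0.018 under the offset for length and GC. Leaving out each library gave Mrpl10 values of -0.020 to 0.12. With library totals Mrpl24 was -0.15, Mrpl27 -0.016, Mrpl44 -0.14, Mrps18c -0.11 and Mrps34 -0.10. Under that offset Mrps18c was -0.10 and Mrpl43 was 0.0017, and Mrpl43 ran from -0.16 to 0.11 over the fits that leave out a library. Replicate numbers did not pair the samples (correlations of deviations -0.0628, 0.00293 and -0.0338), and with the replicate block 48 members rose and 4 fell, against 4064 and 4152 of all genes. The 2 rises not called with the block were Mrpl1 (0.28, adjusted p = 0.064) and Mrpl40 (0.22, adjusted p = 0.089). Members at a few CPM and members with exon overlap are the least precise.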
